A study of Mus musculus with 12 samples.

Results

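Collagens are the main structural proteins of cartilage, bone, tendon, synovium, skin and basement membranes, and each is assembled from chains encoded by separate genes. The 38 chain genes described here were taken by name, each as the feature of the array whose annotation gave that gene symbol alone. All 38 were found, each with 1 feature, and all 38 were among the features with enough mean signal to be tested, which stood for 15992 genes. The genes were chosen by name and not by a measured value, though with earlier results of these data known. The genes were sorted into 7 classes by the structure their proteins form.

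Expression was measured on 12 Mouse Gene 1.0 ST arrays (Affymetrix), each with total RNA of the pulverized ankle joint of 1 mouse, so replicates are separate mice. The mice were described as male C57BL/6, and the Mmp8 allele had been backcrossed into that strain from a mixed background. Mmp8 encodes a collagenase of neutrophils, and Mmp8-/- mice carry the disrupted gene in every cell. There were 3 mice in each of 4 groups. Mmp8+/+ control and Mmp8-/- control mice had no arthritis. Arthritic Mmp8+/+ and arthritic Mmp8-/- mice were injected with 150 µl of K/BxN serum intraperitoneally on day 0 and day 2 and killed on day 7. This serum carries antibodies that give recipients a joint inflammation of the effector phase, without the autoimmune response that made the antibodies. Arthritis was induced at 6 to 8 weeks of age. The values were log2 signals after robust multichip averaging (RMA), so a difference of 1 is a doubling, and signals of different genes are not comparable as levels.

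Of the 12 arrays, 3 stood apart from their labels. The targeted gene, Mmp8, read between 10.21 and 11.16 in the 6 Mmp8+/+ mice and between 4.64 and 5.54 in 5 of the 6 Mmp8-/- mice. The library labelled Mmp8-/- control replicate 2 read 10.65 for Mmp8, within the Mmp8+/+ range. Xist, the transcript of the inactive X chromosome, read 10.42 in Mmp8+/+ control replicate 1 and 10.92 in Mmp8-/- control replicate 1, against 4.66 to 5.41 in the other 10 mice. The Y-linked gene Eif2s3y read 4.02 and 4.16 in these 2 mice and 7.94 or more in the others. All 3 are control mice, so results are given below with and without them. Leaving out all 3 leaves 1 Mmp8-/- control mouse, which is then assumed to vary like the mice of the other groups. Array medians lay between 6.74 and 6.82.

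A collagen molecule is a helix of chains rich in glycine and proline that are hydroxylated, folded and secreted before they assemble outside the cell. Type I, III and V chains form the banded fibrils of bone, tendon, synovium and skin, and FACIT chains decorate the surface of such fibrils. Cartilage has its own set, with type II, IX and XI chains in its fibrils and type X in the hypertrophic zone next to bone. Type IV chains build the network of basement membranes around vessels, fat, muscle and nerve, while type VI chains form beaded filaments that link cells to the matrix.

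Arthritis raised the signal of 16 collagen chains in Mmp8+/+ mice and 9 in Mmp8-/- mice, and lowered 3 in each genotype, at a false discovery rate (FDR) of 5%. Of all tested features, 18.9% were called in Mmp8+/+ mice (7.2% higher, 11.7% lower) and 21.6% in Mmp8-/- mice (7.92% higher, 13.7% lower). The median log2 difference over the chains was 0.44 in Mmp8+/+ and 0.32 in Mmp8-/- mice, while that over all tested features was 0.01 and -0.01. The Mmp8-/- median was 0.18 without arthritic Mmp8-/- replicate 1 and 0.20 without the 3 control arrays that stood apart. The signals of arthritic and control mice did not overlap, with arthritis higher, for 22 chains in Mmp8+/+ and 13 in Mmp8-/- mice, against 18.6% and 18.3% of all features. They did not overlap with arthritis lower for 4 chains in each genotype, against 22.3% and 21% of all features. In whole joints, fewer cells of a type and less RNA per cell cannot be told apart.

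In the average over both genotypes, 21 chains were higher, 4 lower and 13 not called, where 42.1% of all features were called, 19.5% higher and 22.6% lower. Called higher in both genotypes were 6 chains (Col5a1, Col27a1, Col12a1, Col16a1, Col18a1 and Col8a2), and lower in both were 2 (Col10a1 and Col11a2), against 3.63% and 8.8% of all features. A further 10 chains were called higher in Mmp8+/+ mice alone and 3 in Mmp8-/- mice alone, and 15 were called in neither. A call in 1 genotype alone does not show that the genotypes differed, and the test of that difference, the interaction of genotype and arthritis, called 0 chains at an FDR of 5% in limma, with 5 at an unadjusted p under 0.05. Without the 2 arrays with Xist signal, Mmp8+/+ mice had 12 chains higher and 2 lower, and Mmp8-/- mice had 2 of each. Calls over all features fell in both genotypes too, to 9.33% in Mmp8-/- mice. The 4 chains called in Mmp8-/- mice are near that share. Without Mmp8-/- control replicate 2, 4 were higher and 3 lower in Mmp8-/- mice, where 12.9% of all features were called.

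**Figure D1:**
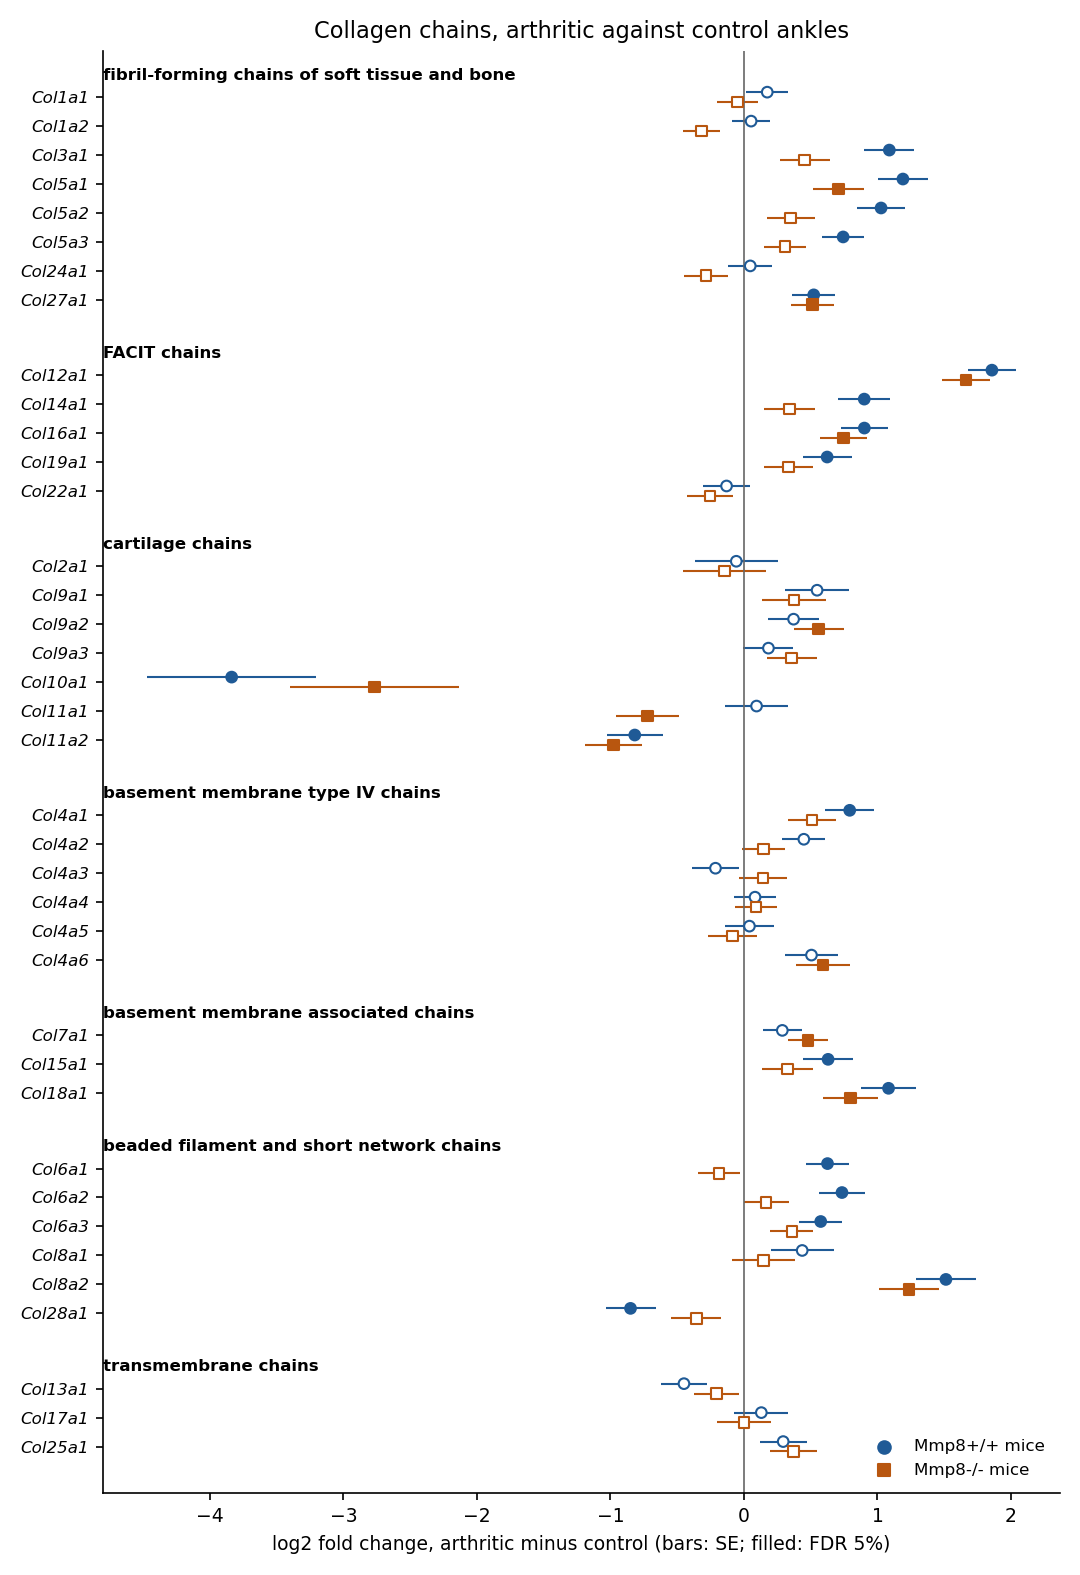
Log2 difference of arthritic minus control mice for each of the 38 chains, grouped by class, with circles for Mmp8+/+ and squares for Mmp8-/- mice. Bars are SE, filled symbols are calls at an FDR of 5%, and each estimate compares 3 with 3 mice. Most symbols lie to the right of 0, with Col12a1 and Col8a2 farthest right and Col10a1 farthest left.

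Among the 8 fibril-forming chains of soft tissue and bone, type III and type V chains rose in Mmp8+/+ mice while neither type I chain passed the test. In Mmp8+/+ mice 5 of 8 were higher and 0 lower, with a median of 0.63, and in Mmp8-/- mice 2 of 8 were higher, with a median of 0.33. Col5a1, the chain that helps start and limit fibril diameter, read 9.06, 9.21 and 9.57 in Mmp8+/+ control mice, 9.50, 9.58 and 9.80 in Mmp8-/- control mice, then 10.53, 10.36 and 10.52 in arthritic Mmp8+/+ mice and 10.71, 10.23 and 10.06 in arthritic Mmp8-/- mice, in the order of replicates 1 to 3. Every arthritic mouse was above every control mouse of either genotype. The log2 difference was 1.19 ± 0.19 (SE, n = 3 against 3) in Mmp8+/+ mice, or 2.28-fold, with an adjusted p of 0.00061 in limma. In Mmp8-/- mice it was 0.71 ± 0.19, with an adjusted p of 0.0173, and 0.69 with an adjusted p of 0.0544 without Mmp8-/- control replicate 2.

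Col3a1, the type III chain of vessels, skin and granulation tissue, read 12.14, 12.32 and 12.84 in Mmp8+/+ control mice, 12.66, 12.93 and 13.05 in Mmp8-/- control mice, then 13.63, 13.36 and 13.57 in arthritic Mmp8+/+ mice and 13.42, 13.40 and 13.19 in arthritic Mmp8-/- mice. Here too every arthritic mouse lay above every control mouse. The log2 difference was 1.09 ± 0.19 in Mmp8+/+ mice (adjusted p = 0.00112 in limma) and 0.45 ± 0.19 in Mmp8-/- mice, where it did not pass (adjusted p = 0.0914). The other type V chains, Col5a2 and Col5a3, rose in Mmp8+/+ mice by 1.03 and 0.74 on the log2 scale, and their estimates in Mmp8-/- mice, 0.35 and 0.31, did not pass. Col27a1, a fibrillar chain of cartilage and its surroundings, rose by 0.52 and 0.51. It was counted in this class and not with the cartilage chains.

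Col1a1 and Col1a2, the chains of type I collagen and the most abundant product of osteoblasts and fibroblasts, had arthritis estimates of 0.17 and 0.05 in Mmp8+/+ mice. In Mmp8-/- mice their estimates were -0.05 (95% interval -0.38 to 0.29) and -0.32 (-0.62 to -0.02), with adjusted p of 0.843 and 0.112. Across all 12 mice Col1a1 read between 13.65 and 14.22, near the top of the range, where the brightest feature of each array read 14.76 to 14.89. Col24a1, a minor fibrillar chain of bone, had estimates of 0.05 and -0.28. Without the 2 arrays with Xist signal the class held 4 calls higher in Mmp8+/+ mice and 0 in Mmp8-/- mice, and without Mmp8-/- control replicate 2 it held 0 in Mmp8-/- mice.

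The 5 FACIT chains of this class had a median of 0.90 in Mmp8+/+ mice, with 4 of 5 called higher. This was the highest median of the classes as sorted here. Type IX chains are FACIT chains too but were counted with cartilage. None of them was called in Mmp8+/+ mice, so the ranking depends on this sorting. Col12a1, a FACIT chain of tendon, ligament and tissue under mechanical load, read 9.90, 9.72 and 9.52 in Mmp8+/+ control mice, 9.43, 9.81 and 9.92 in Mmp8-/- control mice, then 11.35, 11.73 and 11.63 in arthritic Mmp8+/+ mice and 11.48, 11.55 and 11.12 in arthritic Mmp8-/- mice. The gap between the highest control mouse and the lowest arthritic mouse was wider than the range within any group. The log2 difference was 1.86 ± 0.18, or 3.62-fold, in Mmp8+/+ mice (adjusted p = 1.33e-05 in limma) and 1.66 ± 0.18, or 3.17-fold, in Mmp8-/- mice (adjusted p = 3.78e-05). This increase was the largest of the 38 chains in each genotype. Without the 3 arrays that stood apart the differences were 1.95 and 1.47 and still passed, the second against 1 Mmp8-/- control mouse.

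Col16a1, a FACIT chain found in cartilage, skin and around smooth muscle, read 8.02, 7.84 and 8.28 in Mmp8+/+ control mice, 8.17, 8.03 and 8.35 in Mmp8-/- control mice, then 9.05, 8.88 and 8.92 in arthritic Mmp8+/+ mice and 9.26, 8.67 and 8.86 in arthritic Mmp8-/- mice. The lowest arthritic mouse stood above the highest control mouse, and the log2 differences were 0.90 ± 0.18 and 0.75 ± 0.18 (adjusted p = 0.00297 and 0.01 in limma). Col14a1, which binds fibrils of tendon and skin, rose by 0.90 in Mmp8+/+ mice and had an estimate of 0.34 in Mmp8-/- mice that did not pass. Its 3 arthritic Mmp8-/- mice spread from 10.26 to 11.14, and the lowest of them lay below all Mmp8-/- controls, which read 10.30 to 10.56. Col19a1 rose by 0.62 in Mmp8+/+ mice, with 0.33 in Mmp8-/- mice not passing. Its signal was low, with Mmp8+/+ controls at 5.72, 5.47 and 5.82, where the lowest mean of a tested feature was 5.29. Col22a1, a chain of junctions between muscle and tendon, had estimates of -0.13 and -0.25, neither of which passed. In Mmp8-/- mice 2 of the 5 were called higher, and 1 without the 2 arrays with Xist signal.

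**Figure D2:**
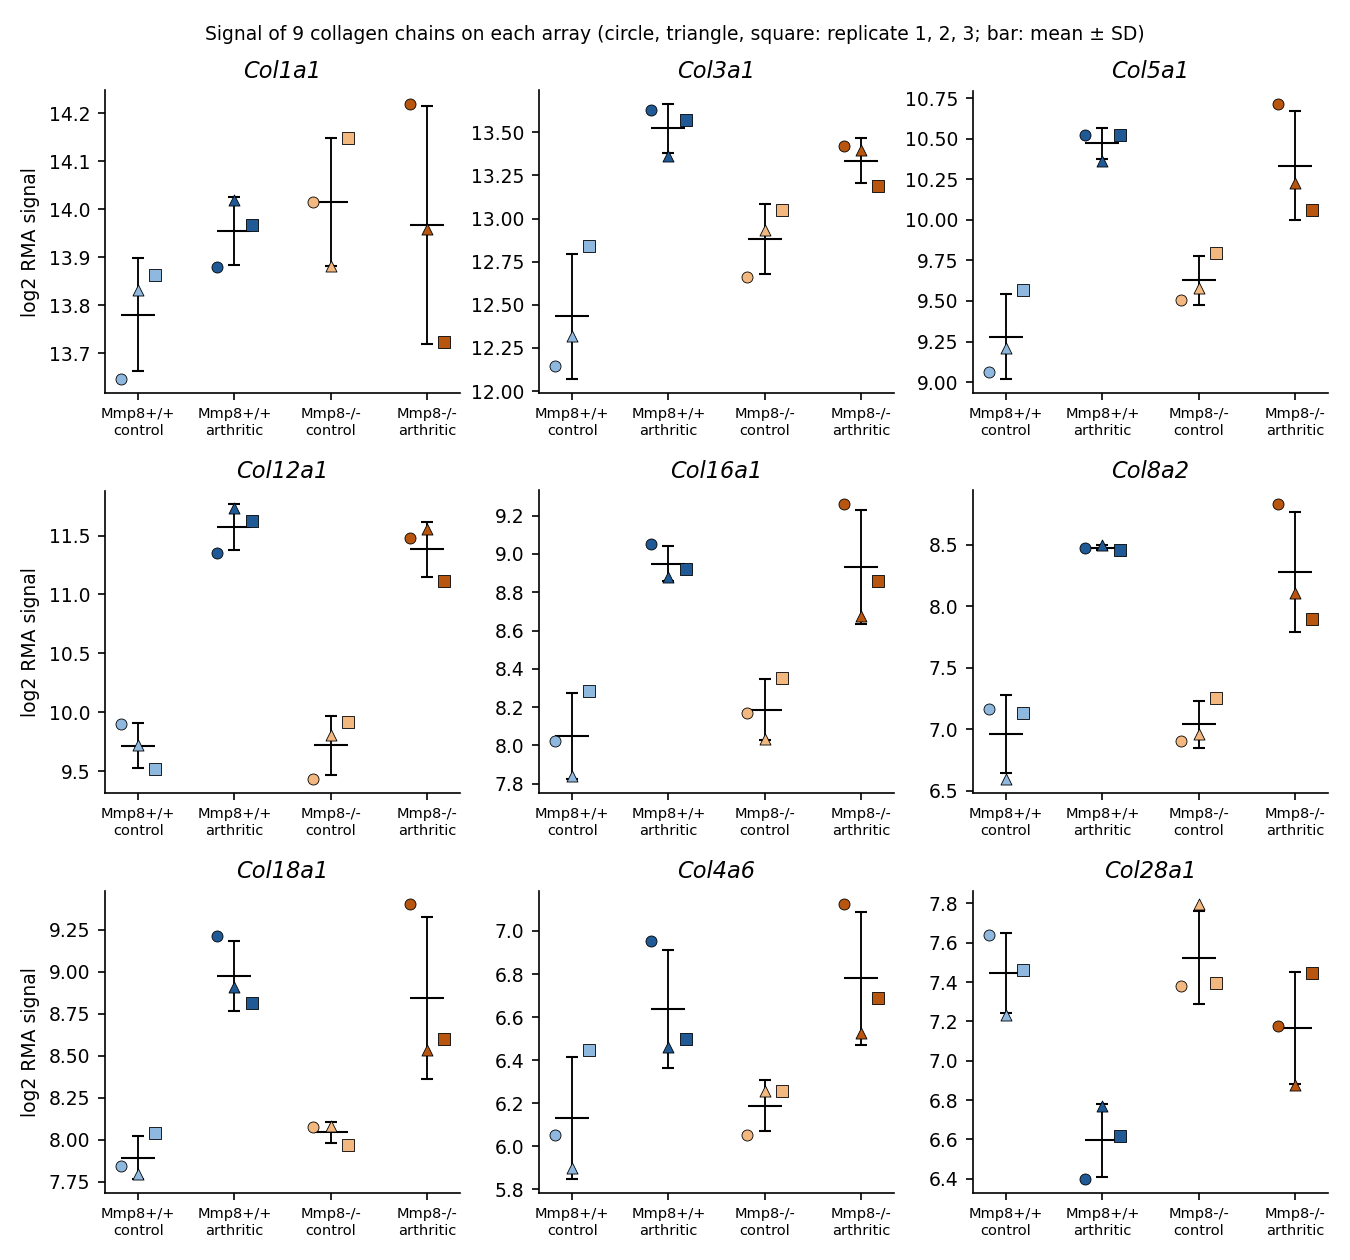
Log2 RMA signal of 9 chains in each of the 12 mice, with circle, triangle and square for replicates 1, 2 and 3 and bars for the group mean ± SD (n = 3). Axes differ between panels and do not start at 0. Arthritic mice lie above controls for Col3a1, Col5a1, Col12a1, Col16a1, Col8a2 and Col18a1, and below for Col28a1 in Mmp8+/+ mice, while the groups overlap for Col1a1.

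The 7 cartilage chains did not move together. Col10a1 and Col11a2 fell in both genotypes, Col11a1 fell in Mmp8-/- mice, Col9a2 rose in Mmp8-/- mice, and Col2a1, Col9a1 and Col9a3 passed in neither genotype. The class median was 0.09 in Mmp8+/+ and -0.15 in Mmp8-/- mice. Col10a1, the chain of hypertrophic chondrocytes, read 10.90, 10.14 and 10.04 in Mmp8+/+ control mice, 10.82, 10.36 and 10.47 in Mmp8-/- control mice, then 6.30, 6.73 and 6.54 in arthritic Mmp8+/+ mice and 6.85, 6.45 and 10.04 in arthritic Mmp8-/- mice. Arthritic Mmp8-/- replicate 3 read 10.04, as did the lowest control mouse, and the other 5 arthritic mice lay between 6.30 and 6.85. The log2 difference was -3.84 ± 0.63 in Mmp8+/+ mice, or 14.3-fold lower (adjusted p = 0.000884 in limma), and -2.77 ± 0.63 in Mmp8-/- mice (adjusted p = 0.00819). Without arthritic Mmp8-/- replicate 3 the Mmp8-/- estimate was -3.90 ± 0.26. Without the 3 control arrays that stood apart it was -2.68 against the 1 Mmp8-/- control mouse left, with an adjusted p of 0.186.

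Arthritic Mmp8-/- replicate 3 also differed from its group in marker lists. The mean signal of 10 chondrocyte markers was 8.35 in that mouse and 7.50 and 7.56 in the other arthritic Mmp8-/- mice, and that of 6 osteoblast markers was 8.66 against 7.51 and 7.79. Controls ranged from 8.27 to 8.69 for the chondrocyte list and from 8.85 to 9.84 for the osteoblast list. The same mouse was nearest the controls within its group in other lists too. It read 7.82 against 7.21 and 7.40 for adipocyte markers and 8.20 against 7.56 and 7.87 for Schwann cell markers. For skeletal muscle markers it read 10.56 against 10.06 and 9.33. For macrophage markers it was the farthest from controls, at 10.42 against 10.02 and 10.21. The part of these marker levels in the Col10a1 values was not tested.

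Col11a2, a chain of the thin fibrils of cartilage, read 9.17, 9.06 and 9.28 in Mmp8+/+ control mice, 9.77, 9.04 and 9.82 in Mmp8-/- control mice, then 8.29, 8.28 and 8.49 in arthritic Mmp8+/+ mice and 8.57, 8.25 and 8.88 in arthritic Mmp8-/- mice. The arthritic mice lay below the controls within each genotype, and the log2 differences were -0.82 ± 0.21 and -0.98 ± 0.21 (adjusted p = 0.015 and 0.0059 in limma). Without the 2 arrays with Xist signal the first of these had an adjusted p of 0.0529. Its partner Col11a1 had an estimate of 0.09 in Mmp8+/+ mice and fell by 0.72 in Mmp8-/- mice (adjusted p = 0.0441).

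That fall rested on the Mmp8-/- controls, of which replicates 1 and 3 read 10.93 and 10.82 and replicate 2, the array with Mmp8 signal, read 9.77. The other 9 mice read between 9.73 and 10.09. Without Mmp8-/- control replicate 2 the difference was -1.09 (adjusted p = 0.000836), and without replicate 1 it was -0.51 (adjusted p = 0.196). Col2a1, the main fibrillar chain of cartilage, had estimates of -0.06 (95% interval -0.72 to 0.61) and -0.15 (-0.81 to 0.52). Its highest readings, 10.33 each, came from Mmp8-/- control replicate 3 and arthritic Mmp8-/- replicate 3.

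The type IX chains, which sit on the surface of type II fibrils, had positive estimates. Col9a2 rose by 0.56 in Mmp8-/- mice (adjusted p = 0.0479 in limma) and had an estimate of 0.37 in Mmp8+/+ mice. In the average over genotypes Col9a1 and Col9a2 passed with 0.46 and 0.47, and Col9a3 did not, with 0.27. None of the type IX chains passed in the average without the 2 arrays with Xist signal, where the class held 0 calls higher and 2 lower.

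**Figure D3:**
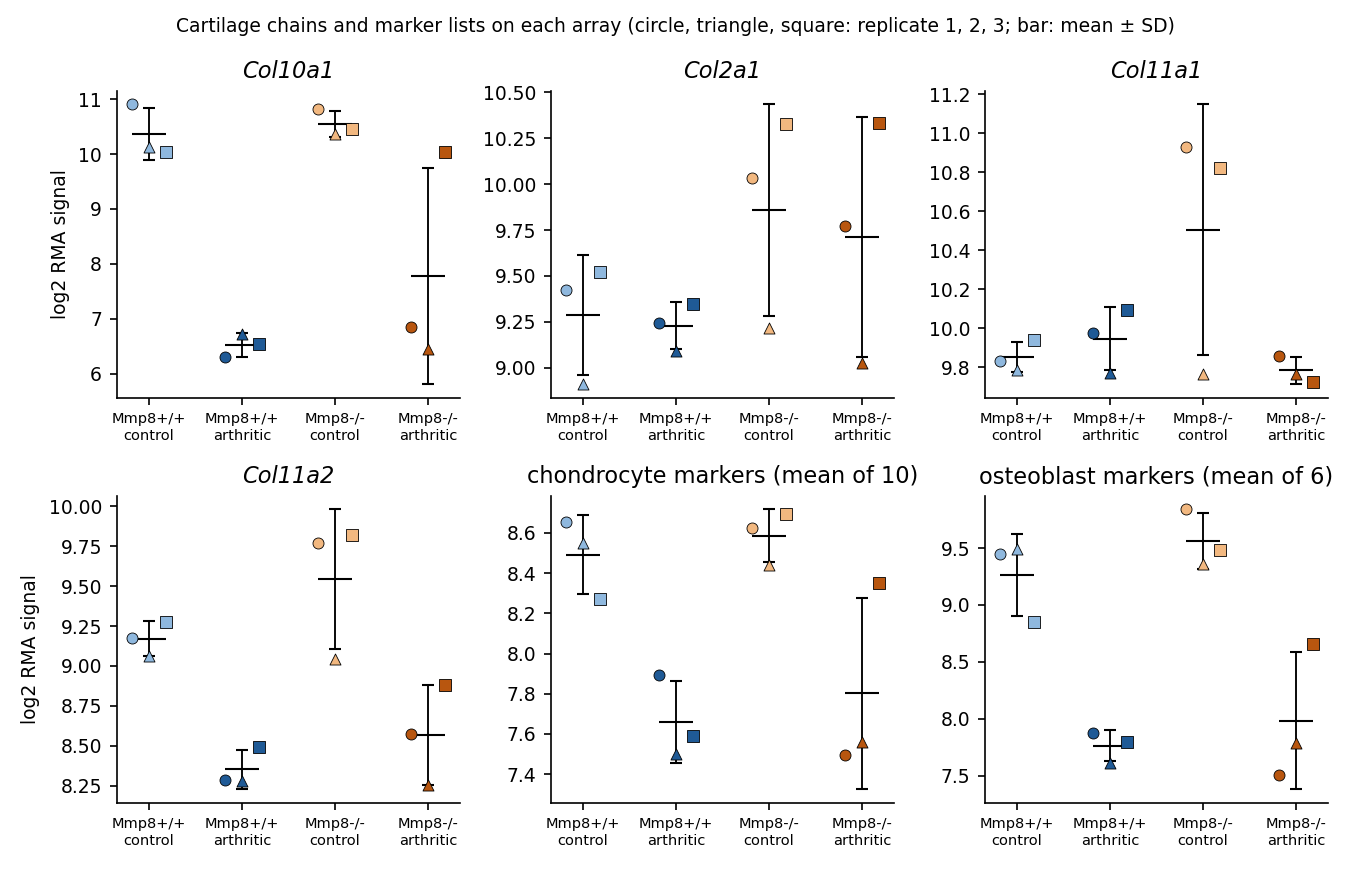
Log2 RMA signal of Col10a1, Col2a1, Col11a1 and Col11a2 and the mean signal of the chondrocyte and osteoblast marker lists in each of the 12 mice, with circle, triangle and square for replicates 1, 2 and 3 and bars for the group mean ± SD (n = 3). Arthritic Mmp8-/- replicate 3 (square) lies near the controls for Col10a1, and Mmp8-/- control replicate 2 (triangle) lies apart from the other Mmp8-/- controls for Col11a1.

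The 6 type IV chains of basement membrane had medians of 0.27 in Mmp8+/+ and 0.14 in Mmp8-/- mice. In Mmp8+/+ mice 1 of 6 passed, in Mmp8-/- mice 1, and in the average over genotypes 3, all higher. Col4a1, which with Col4a2 forms the network found in almost every basement membrane, read 8.99, 9.02 and 9.30 in Mmp8+/+ control mice, 9.18, 9.14 and 9.41 in Mmp8-/- control mice, then 9.87, 9.79 and 10.03 in arthritic Mmp8+/+ mice and 10.17, 9.60 and 9.49 in arthritic Mmp8-/- mice. Arthritic mice lay above every control mouse, and the log2 difference was 0.79 ± 0.18 in Mmp8+/+ mice (adjusted p = 0.00815 in limma) and 0.51 ± 0.18 in Mmp8-/- mice (adjusted p = 0.0596). Without the 2 arrays with Xist signal the Mmp8+/+ difference was 0.74 (adjusted p = 0.051). Col4a2 had estimates of 0.45 and 0.15 and passed only in the average, at 0.30.

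Col4a6, a chain of basement membranes of smooth muscle and some epithelia, read 6.05, 5.90 and 6.45 in Mmp8+/+ control mice, 6.05, 6.26 and 6.26 in Mmp8-/- control mice, then 6.95, 6.46 and 6.50 in arthritic Mmp8+/+ mice and 7.12, 6.53 and 6.69 in arthritic Mmp8-/- mice. Control and arthritic mice were separate within each genotype, with 1 Mmp8+/+ control at 6.45 just under the lowest arthritic mouse. The signal was low, with all controls below the array medians of 6.74 to 6.82. The lowest mean of a tested feature was 5.29. The log2 differences of Col4a6 were 0.51 ± 0.20 (adjusted p = 0.0914) and 0.59 ± 0.20 (adjusted p = 0.0481 in limma), and the second did not pass without Mmp8-/- control replicate 2 (adjusted p = 0.0864). Its neighbour Col4a5 had estimates of 0.04 and -0.08. Col4a3 and Col4a4, chains of the kidney and lung basement membrane, had estimates between -0.21 and 0.14, none of which passed. Without the 2 arrays with Xist signal 0 type IV chains were called in either genotype alone.

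The 3 chains associated with basement membranes had positive estimates in both genotypes. Col18a1, whose C-terminal fragment is endostatin, read 7.85, 7.80 and 8.04 in Mmp8+/+ control mice, 8.08, 8.08 and 7.97 in Mmp8-/- control mice, then 9.21, 8.91 and 8.81 in arthritic Mmp8+/+ mice and 9.40, 8.53 and 8.60 in arthritic Mmp8-/- mice. The control mice spanned 7.80 to 8.08 and all arthritic mice read 8.53 or more. The log2 differences were 1.08 ± 0.21 and 0.80 ± 0.21 (adjusted p = 0.00248 and 0.0158 in limma), with an adjusted p of 0.061 in Mmp8-/- mice without the 2 arrays with Xist signal.

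Col15a1, a chain of vessel, muscle and nerve basement membranes, read 7.96, 8.51 and 8.54 in Mmp8+/+ control mice, 8.62, 8.68 and 8.72 in Mmp8-/- control mice, then 8.88, 9.15 and 8.87 in arthritic Mmp8+/+ mice and 9.21, 9.13 and 8.67 in arthritic Mmp8-/- mice. Mmp8+/+ control replicate 1, 1 of the arrays with Xist signal, was the lowest of all 12 mice. The log2 difference in Mmp8+/+ mice was 0.63 ± 0.19 (adjusted p = 0.0322 in limma), and without that array it was 0.44 (adjusted p = 0.156). In Mmp8-/- mice it was 0.33, which did not pass. Col7a1, the chain of anchoring fibrils under epithelia, rose by 0.48 in Mmp8-/- mice (adjusted p = 0.0327) and had an estimate of 0.29 in Mmp8+/+ mice.

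The class of beaded filaments and short networks held 6 chains, of which 4 rose and 1 fell in Mmp8+/+ mice and 1 rose in Mmp8-/- mice. Col8a2, a short-chain collagen of the hexagonal network under endothelia, read 7.16, 6.60 and 7.13 in Mmp8+/+ control mice, 6.91, 6.96 and 7.26 in Mmp8-/- control mice, then 8.47, 8.50 and 8.46 in arthritic Mmp8+/+ mice and 8.83, 8.11 and 7.90 in arthritic Mmp8-/- mice. All arthritic mice lay above all controls, and the 3 arthritic Mmp8+/+ mice read between 8.46 and 8.50. The log2 difference was 1.51 ± 0.22, or 2.85-fold, in Mmp8+/+ mice and 1.24 ± 0.22, or 2.36-fold, in Mmp8-/- mice (adjusted p = 0.000374 and 0.00181 in limma). Its partner Col8a1 had estimates of 0.44 and 0.15, neither of which passed.

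The type VI chains are made by fibroblasts, muscle interstitium and nerve. Col6a1 read 10.68, 10.34 and 10.42 in Mmp8+/+ control mice, 10.97, 10.86 and 10.98 in Mmp8-/- control mice, then 11.31, 10.91 and 11.09 in arthritic Mmp8+/+ mice and 10.83, 10.85 and 10.57 in arthritic Mmp8-/- mice. The arthritic Mmp8+/+ mice lay above their controls, and the arthritic Mmp8-/- mice lay below theirs, so the groups did not overlap in either genotype. The arthritis difference was 0.63 ± 0.16 in Mmp8+/+ mice (adjusted p = 0.0134 in limma) and -0.19 ± 0.16 in Mmp8-/- mice (adjusted p = 0.396). The interaction, the difference of these, was -0.81 ± 0.22, with the smallest unadjusted p of the 38 chains, 0.00255, and an adjusted p of 1.

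Col6a2 read 10.06, 10.12 and 9.98 in Mmp8+/+ control mice, 10.48, 10.72 and 10.57 in Mmp8-/- control mice, then 10.77, 10.72 and 10.87 in arthritic Mmp8+/+ mice and 11.01, 10.89 and 10.37 in arthritic Mmp8-/- mice. Mmp8-/- controls lay above Mmp8+/+ controls without overlap, and the arthritic groups overlapped. The arthritis difference was 0.73 ± 0.17 in Mmp8+/+ mice (adjusted p = 0.00793 in limma) and 0.17 ± 0.17 in Mmp8-/- mice. Col6a3, the longest of the type VI chains, rose by 0.57 in Mmp8+/+ mice and had an estimate of 0.36 in Mmp8-/- mice that did not pass. Without the 3 arrays that stood apart 2 chains of this class were called higher in Mmp8+/+ mice, and 0 in Mmp8-/- mice, where 1 control mouse was left.

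Col28a1, a chain known from Schwann cells of peripheral nerve, read 7.64, 7.23 and 7.46 in Mmp8+/+ control mice, 7.38, 7.80 and 7.40 in Mmp8-/- control mice, then 6.40, 6.77 and 6.62 in arthritic Mmp8+/+ mice and 7.18, 6.88 and 7.44 in arthritic Mmp8-/- mice. The arthritic Mmp8+/+ mice were the lowest 3 of all 12, and the arthritic Mmp8-/- mice overlapped their controls. It fell by 0.85 in Mmp8+/+ mice (SE 0.19, adjusted p = 0.00603 in limma), and its estimate in Mmp8-/- mice was -0.36 (adjusted p = 0.175). Of 5 Schwann cell markers measured, 4 fell in each genotype, where 11.7% and 13.7% of all features were lower. The mean signal of these markers ranged from 8.47 to 9.02 in controls, 7.62 to 7.72 in arthritic Mmp8+/+ mice and 7.56 to 8.20 in arthritic Mmp8-/- mice. Among them Pmp22, a protein of compact myelin, changed by -1.24 ± 0.32 in Mmp8+/+ and -1.52 ± 0.32 in Mmp8-/- mice. Their part in the fall of Col28a1 was not tested.

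The 3 transmembrane chains passed in neither genotype alone. Col25a1, a neuronal and muscle chain, read 6.68, 6.66 and 6.90 in Mmp8+/+ control mice, 6.62, 6.92 and 6.90 in Mmp8-/- control mice, then 7.21, 6.91 and 7.01 in arthritic Mmp8+/+ mice and 7.54, 6.96 and 7.05 in arthritic Mmp8-/- mice. The arthritic mice of each genotype lay just above their controls, and Col25a1 passed only in the average over genotypes, at 0.33 ± 0.12 (adjusted p = 0.0437 in limma). Col13a1, a chain of the neuromuscular junction and of many mesenchymal cells, read 7.88, 7.85 and 7.84 in Mmp8+/+ control mice, 7.95, 8.01 and 7.71 in Mmp8-/- control mice, then 7.68, 7.14 and 7.39 in arthritic Mmp8+/+ mice and 7.89, 7.47 and 7.69 in arthritic Mmp8-/- mice. It was lower in the average, at -0.33 ± 0.12 (adjusted p = 0.0408), with arthritic Mmp8-/- mice overlapping their controls. Neither average passed without the 2 arrays with Xist signal (adjusted p = 0.184 and 0.136). Col17a1, the chain of hemidesmosomes in epidermis, had estimates of 0.13 and 0.00.

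Chains that share a molecule or a fibril need not change in proportion, so the log2 ratio of 14 pairs of partner chains was compared within each array. Ratios are given relative to the mean of the controls of the same genotype, and the difference of arthritic from control mice was tested with a two-sided exact permutation test within genotype (6 against 6 mice, 400 arrangements, smallest possible p 0.005). Of the 14 pairs, 7 changed at an adjusted p under 0.05. The share that would change among pairs of other genes was not computed. With 42.1% of all single features called in the average over genotypes, the count does not show that collagen pairs differ from others.

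Col3a1 and Col5a1 rose relative to Col1a1. The log2 ratio of Col5a1 over Col1a1 in arthritic mice was 1.15, 0.85 and 1.06 in Mmp8+/+ and 0.88, 0.66 and 0.73 in Mmp8-/- mice, while controls lay between -0.12 and 0.21. The ratio of Col3a1 over Col1a1 was 1.10, 0.69 and 0.95 in arthritic Mmp8+/+ and 0.34, 0.57 and 0.60 in arthritic Mmp8-/- mice, with controls between -0.22 and 0.32. The average differences were 0.89 and 0.71 (exact permutation p = 0.005, adjusted p = 0.014 for each). The signal of Col1a1 was near the top of the range on all arrays, and the part of this in the ratios was not tested. Within type I itself, Col1a1 rose over Col1a2 by 0.20 (exact permutation p = 0.01, adjusted p = 0.0233), and this did not pass without the 2 arrays with Xist signal (adjusted p = 0.0875), without the Mmp8-/- control of these alone (adjusted p = 0.0613), or after quantile normalization, where it was 0.11 (adjusted p = 0.163).

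Chains of the same network also parted. Col8a1 relative to Col8a2 was between -0.82 and -1.38 in the 6 arthritic mice and between -0.56 and 0.50 in controls, an average difference of -1.08 (exact permutation p = 0.005, adjusted p = 0.014). Col4a1 rose over Col4a2 by 0.35, with all arthritic mice at 0.17 or more and all controls at 0.05 or less. Col4a5 relative to Col4a6 fell by 0.57, from -0.24 to 0.14 in controls to between -0.33 and -1.01 in arthritic mice. The p-values of these 2 pairs were the same as for Col8a1 and Col8a2. The signal of Col4a6 was low, with all controls below the array medians. Col11a1 rose over Col11a2 by 0.58 (exact permutation p = 0.02, adjusted p = 0.04), with 0.91 in Mmp8+/+ and 0.25 in Mmp8-/- mice, and this did not pass without Mmp8-/- control replicate 2 (adjusted p = 0.0612) or arthritic Mmp8-/- replicate 2 (adjusted p = 0.07), and lay at 0.05 without arthritic Mmp8-/- replicate 1.

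The other 7 pairs did not pass, among them the type VI and type IX pairs and Col5a1 over Col5a2 (0.26, exact permutation p = 0.055, adjusted p = 0.0963). Col5a1 over Col5a2 did pass after quantile normalization (0.33, adjusted p = 0.04), without Mmp8-/- control replicate 2 (0.34, adjusted p = 0.0233) and without Mmp8+/+ control replicate 3 (0.30, adjusted p = 0.0438). Col4a3 over Col4a4 passed without Mmp8-/- control replicate 1 (-0.25, adjusted p = 0.04), against -0.12 with all mice. Without the 2 arrays with Xist signal 6 of the 7 pairs that changed kept an adjusted p under 0.05. Without these and Mmp8-/- control replicate 2, 1 Mmp8-/- control mouse and 40 arrangements remain, the smallest possible p is 0.025 and 0 pairs passed, which says little about stability, with differences of -0.80 for Col8a1 over Col8a2 and 0.85 for Col5a1 over Col1a1.

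**Figure D4:**
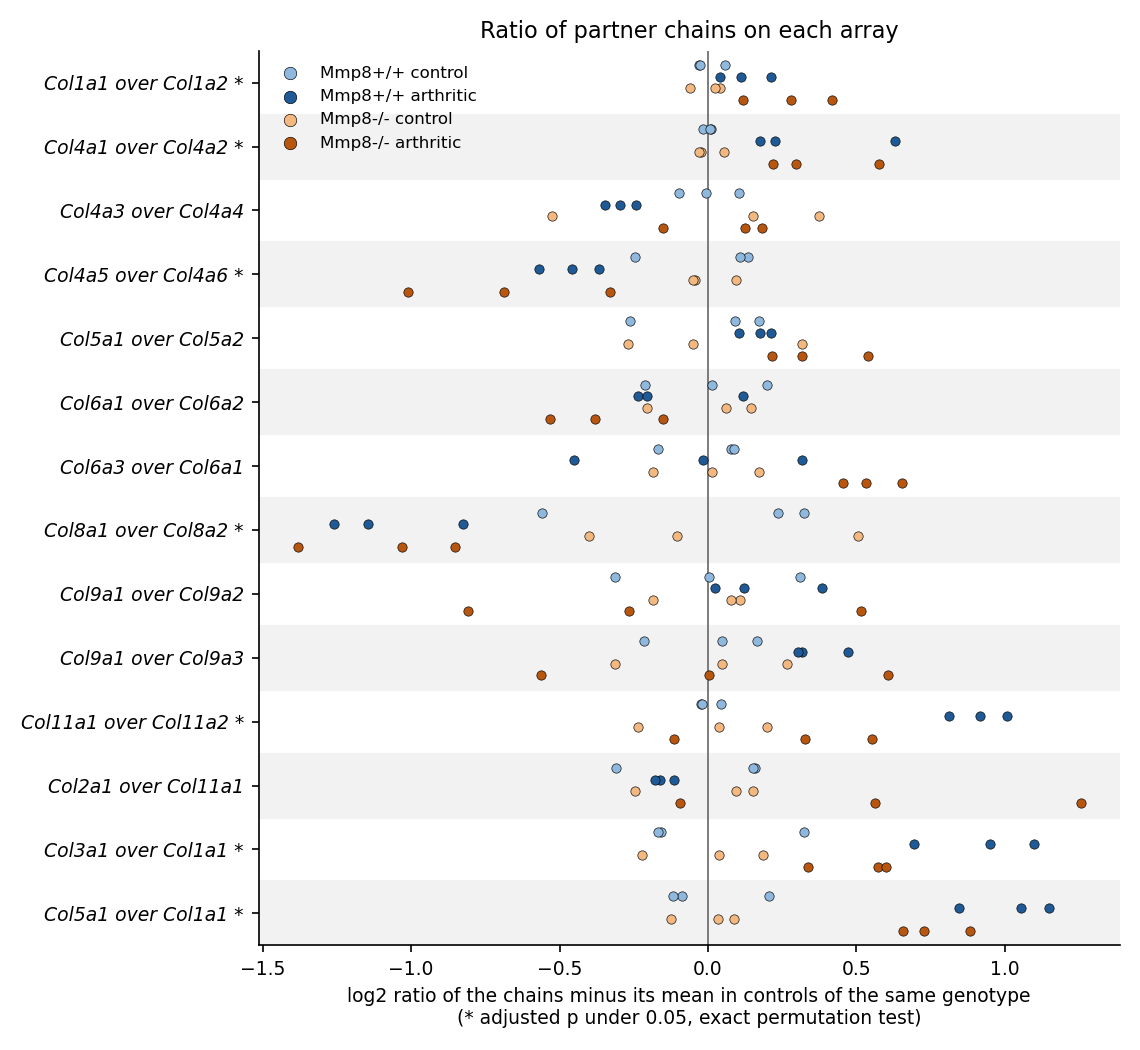
Log2 ratio of 14 pairs of partner chains in each of the 12 mice, minus the mean of the control mice of the same genotype. Points are single mice, coloured by group, and an asterisk marks an adjusted p under 0.05 in the exact permutation test. Arthritic mice lie to the left of all controls for Col8a1 over Col8a2 and Col4a5 over Col4a6, and to the right for Col3a1 and Col5a1 over Col1a1.

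In GRCm38.p6 Col4a5 and Col4a6 lie head to head on chromosome X with their annotated starts 1343 bases apart. Col4a1 and Col4a2 lie head to head with annotated starts 21 bases apart. Each pair is read in opposite directions. By these starts the first bases of Col4a1 and Col4a2 overlap, and those of Col4a5 and Col4a6 do not. Shown here are the 250 bases before the start of Col4a5, Col4a6, Col1a2 and Col3a1 from RefSeq, 5′ to 3′ on the strand of each gene, because each belongs to a pair whose ratio changed, with Col4a5 against Col4a6 and with Col1a2 and Col3a1 each against Col1a1. Capitals mark the CCAAT box (CCAAT), the GC box (GGGCGG, or CCGCCC when read on the other strand) and the TATA box (TATAAA).

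Col4a5, chrX:141475169-141475418, plus strand: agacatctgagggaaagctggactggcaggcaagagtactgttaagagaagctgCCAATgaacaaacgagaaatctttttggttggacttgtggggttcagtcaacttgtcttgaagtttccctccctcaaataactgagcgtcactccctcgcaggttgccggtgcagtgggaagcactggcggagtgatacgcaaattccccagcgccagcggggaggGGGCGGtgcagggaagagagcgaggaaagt

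Col4a6, chrX:141474077-141474326, minus strand: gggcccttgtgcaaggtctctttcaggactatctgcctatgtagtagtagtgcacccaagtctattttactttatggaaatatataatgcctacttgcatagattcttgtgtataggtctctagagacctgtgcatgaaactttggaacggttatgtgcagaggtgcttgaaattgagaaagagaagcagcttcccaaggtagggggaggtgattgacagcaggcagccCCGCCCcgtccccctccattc

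Col1a2, chr6:4505368-4505617, plus strand: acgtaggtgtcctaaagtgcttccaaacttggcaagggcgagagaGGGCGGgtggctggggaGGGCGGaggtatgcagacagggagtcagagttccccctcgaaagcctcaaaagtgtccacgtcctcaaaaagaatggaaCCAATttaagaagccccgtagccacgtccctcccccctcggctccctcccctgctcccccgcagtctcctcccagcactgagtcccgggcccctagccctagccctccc

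Col3a1, chr1:45311288-45311537, plus strand: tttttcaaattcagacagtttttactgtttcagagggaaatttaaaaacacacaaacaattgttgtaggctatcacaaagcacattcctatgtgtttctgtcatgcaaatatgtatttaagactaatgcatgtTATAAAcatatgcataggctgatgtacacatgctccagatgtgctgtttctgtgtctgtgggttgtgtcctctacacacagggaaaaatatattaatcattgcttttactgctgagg

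The window of Col4a5, whose arthritis estimates were 0.04 and -0.08, held a CCAAT box and a GC box, and that of Col4a6, with 0.51 and 0.59, held a GC box. Col1a2, with 0.05 and -0.32, held a CCAAT box and 2 GC boxes. Col3a1, with 1.09 and 0.45, held a match to the letters of the TATA box, near the middle of the window and not next to the start.

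Promoter windows, which begin 250 bases before the start and reach a little past it, were matched for 30 of the 38 genes, in 33 windows. Motifs were searched on both strands. The GC box was in 19 of 33 windows, against 35.7% of all promoter windows of the annotation, and the CCAAT box in 12 of 33, against 37.4%. The TATA box was in 5 (Col10a1, Col11a2, Col13a1, Col17a1 and Col3a1), against 13.6%. The AP-1 site TGANTCA was in 1, Col6a1, against 7.81%, and the E box CACCTG was in 4, against 20.2%. The NF-kB site was in 0 of the 33 windows and in 0.155% of all. These are matches of letters and not sites of binding.

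Genotype made no difference that passed the test for any of the 38 chains, in control or in arthritic mice. Between Mmp8-/- and Mmp8+/+ control mice 0 chains were called at an FDR of 5% in limma and 7 had an unadjusted p under 0.05, where 0% and 3.22% of all features did. Between arthritic mice 0 were called and 2 had an unadjusted p under 0.05, against 0.00541% and 2.83%. For the interaction 0 were called and 5 had an unadjusted p under 0.05, against 0% and 3.11%.

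In control mice the estimates of 34 of the 38 chains were above 0, that is, higher in Mmp8-/- mice, with a median of 0.19, while 51.3% of all tested features had an estimate above 0. The mean signal over the 38 chains was 8.68, 8.60 and 8.81 in Mmp8+/+ controls and 8.89, 8.84 and 9.0 in Mmp8-/- controls. These groups did not overlap, and the array with Mmp8 signal had the lowest of the Mmp8-/- values. The count above 0 was 31 without Mmp8-/- control replicate 2, 31 with a median of 0.12 without Mmp8+/+ control replicate 2, 34 without the 2 arrays with Xist signal and 32 when each array was centred on its mean. In arthritic mice, with means of 9.05, 8.98 and 9.01 in Mmp8+/+ and 9.20, 8.94 and 9.04 in Mmp8-/- mice, 19 of 38 were above 0, with a median of -0.01, against 48.5% of all features. The interaction was below 0 for 28 of 38, with a median of -0.20, which was -0.13 without arthritic Mmp8-/- replicate 3 and -0.34 without the 3 control arrays that stood apart. The interaction is computed from the same control mice, so it is not a separate observation.

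The smallest unadjusted p between control mice was that of Col6a2, with 0.54 ± 0.17 (95% interval 0.18 to 0.90). Its unadjusted p in limma, fitted over all features, was 0.00637 and its adjusted p 1. The other 6 were Col6a1 (0.46), Col19a1 (0.51, at low signal), Col11a1 (0.65), Col5a2 (0.44), Col3a1 (0.45) and Col1a2 (0.31), all higher in Mmp8-/- mice. The groups did not overlap, with Mmp8-/- controls higher, for 7 chains, against 4% of all features, and with Mmp8-/- controls lower for 0 chains, against 3.82%. Without Mmp8-/- control replicate 2 the difference of Col11a1 was 1.02 ± 0.16, still with an adjusted p of 0.141.

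Between arthritic mice the smallest unadjusted p was that of Col28a1, with 0.57 ± 0.19 (95% interval 0.17 to 0.97), the arthritic Mmp8-/- mice being higher without overlap. Its unadjusted p in limma, fitted over all features, was 0.00829 and its adjusted p 1. The arthritic groups did not overlap for 2 chains with Mmp8-/- mice higher, against 2.84% of all features, and for 1 with them lower, against 3.34%. The other chain with an unadjusted p under 0.05 was Col6a1, at -0.35 (-0.69 to -0.02). For Col10a1 the estimate was 1.26 with an interval of -0.10 to 2.62, the widest of the 38, and it includes arthritic Mmp8-/- replicate 3. For Col1a1 and Col3a1, fibrillar chains that MMP-8 is known to cleave as proteins, the estimates were 0.01 (-0.32 to 0.35) and -0.19 (-0.59 to 0.21). The arrays measure transcripts and not the amount of collagen in the tissue.

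**Figure D5:**
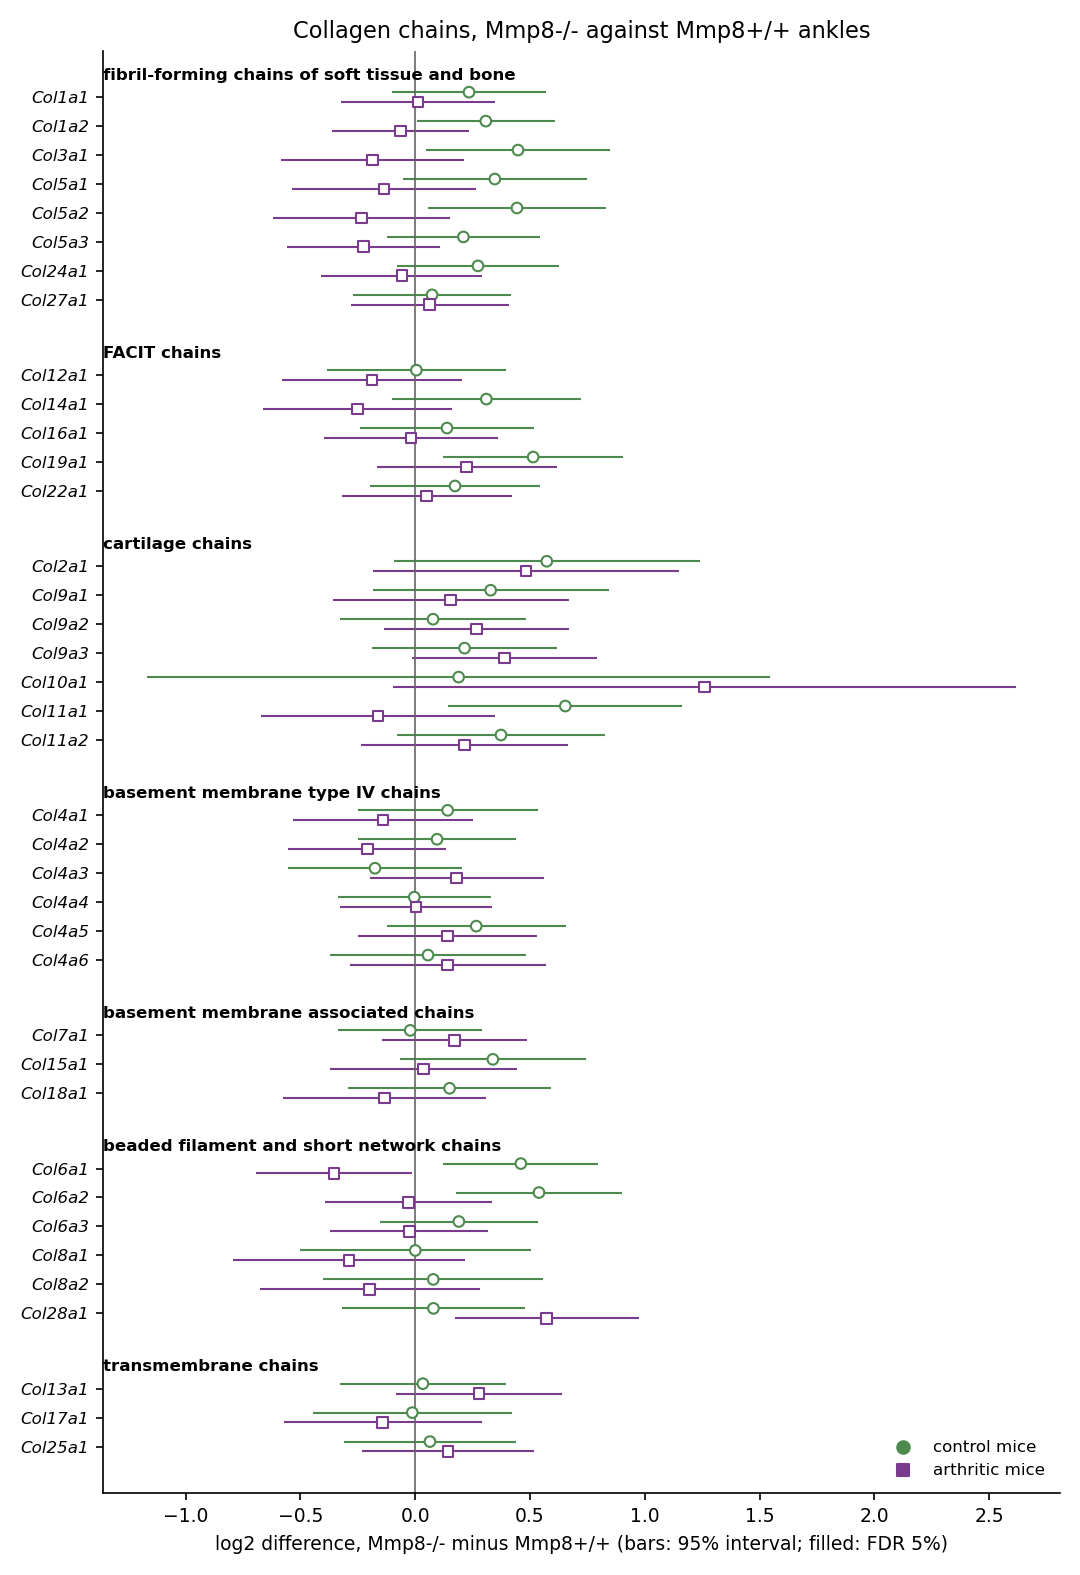
Log2 difference of Mmp8-/- minus Mmp8+/+ mice for each of the 38 chains, with circles for control and squares for arthritic mice. Bars are 95% intervals, each estimate compares 3 with 3 mice, and open symbols mark estimates that did not pass an FDR of 5%, here all of them. Circles lie above 0 for 34 chains and squares for 19.

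Most genes that fold and hydroxylate procollagen rose in Mmp8+/+ mice. For comparison with this and the following lists, 7.2% of all tested features were higher and 11.7% lower in Mmp8+/+ mice. In Mmp8-/- mice these shares were 7.92% and 13.7%. Of 18 measured, Mmp8+/+ mice had 13 higher and 1 lower, while Mmp8-/- mice had 8 higher and 1 lower, with medians of 0.69 and 0.40. P4ha3, a catalytic subunit of prolyl 4-hydroxylase, changed by 3.25 ± 0.23 in Mmp8+/+ and 2.77 ± 0.23 in Mmp8-/- mice, and Colgalt2, a collagen galactosyltransferase, by -2.08 ± 0.22 in Mmp8+/+ and -2.12 ± 0.22 in Mmp8-/- mice. Of 15 genes of procollagen processing and crosslinking, 5 rose and 1 fell in Mmp8+/+ mice, and 4 rose and 1 fell in Mmp8-/- mice. Loxl3, a lysyl oxidase, changed by 1.34 ± 0.15 in Mmp8+/+ and 1.14 ± 0.15 in Mmp8-/- mice, and Pcolce2, an enhancer of C-propeptide removal, by -1.83 ± 0.24 in Mmp8+/+ and -1.45 ± 0.24 in Mmp8-/- mice.

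Among collagen receptors more fell than rose. Of 9 measured, 2 rose and 5 fell in Mmp8+/+ mice, and 0 rose and 4 fell in Mmp8-/- mice. Lair1, an inhibitory receptor of leukocytes, changed by -1.24 ± 0.23 in Mmp8+/+ and -1.30 ± 0.23 in Mmp8-/- mice, and Itga10, the integrin subunit of chondrocytes, by -0.72 ± 0.21 in Mmp8+/+ and -1.14 ± 0.21 in Mmp8-/- mice. Of 8 genes of collagen degradation, Mmp8 among them, 3 rose and 1 fell in Mmp8+/+ mice, and 1 rose and 2 fell in Mmp8-/- mice. A count of 1 of 8 is near the shares of all features. Mmp13, the collagenase of chondrocytes and osteoblasts, changed by 0.71 ± 0.20 in Mmp8+/+ and 0.85 ± 0.20 in Mmp8-/- mice, and Mmp16, a membrane-bound metalloproteinase, by -0.85 ± 0.27 in Mmp8+/+ and -0.95 ± 0.27 in Mmp8-/- mice. Of 11 transcription factors known to act on collagen genes, 3 rose and 3 fell in Mmp8+/+ mice, and 2 rose and 6 fell in Mmp8-/- mice. Among these Sp7, the osteoblast factor, changed by -0.91 ± 0.23 in Mmp8+/+ and -1.30 ± 0.23 in Mmp8-/- mice, and Sox5, which acts with Sox9 on cartilage genes, by -0.79 ± 0.19 in Mmp8+/+ and -1.03 ± 0.19 in Mmp8-/- mice.

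Markers of several cell types changed in the same arthritic mice. All 7 adipocyte markers measured fell in both genotypes, 8 of 8 skeletal muscle markers fell in Mmp8+/+ and 4 in Mmp8-/- mice, and 5 of 6 osteoblast markers fell in both. The adipocyte mean signal was 8.97 or more in controls and 7.21 to 7.82 in arthritic mice, and that of muscle 11.03 to 12.15 and 9.17 to 10.81. Adipoq and Fabp4, products of fat cells, changed by -2.58 ± 0.37 in Mmp8+/+ and -2.77 ± 0.37 in Mmp8-/- mice and by -2.24 ± 0.23 in Mmp8+/+ and -2.49 ± 0.23 in Mmp8-/- mice. Myh2, a myosin heavy chain of muscle fibres, changed by -2.50 ± 0.47 in Mmp8+/+ and -2.13 ± 0.47 in Mmp8-/- mice. Of 10 chondrocyte markers, 1 rose and 3 fell in Mmp8+/+ mice and 2 rose and 4 fell in Mmp8-/- mice, with -4.50 ± 0.34 in Mmp8+/+ and -4.19 ± 0.34 in Mmp8-/- mice for Cytl1 and -3.31 ± 0.41 in Mmp8+/+ and -3.40 ± 0.41 in Mmp8-/- mice for Chad. Cytl1 is a secreted protein and Chad a matrix protein of chondrocytes. Phex and Dmp1, genes of osteocytes, changed by -3.20 ± 0.44 in Mmp8+/+ and -3.25 ± 0.44 in Mmp8-/- mice and by -2.42 ± 0.38 in Mmp8+/+ and -1.60 ± 0.38 in Mmp8-/- mice.

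Fibroblast markers moved both ways. Of 8 measured 3 rose in Mmp8+/+ mice, 2 rose and 1 fell in Mmp8-/- mice, and 3 rose and 3 fell in the average over genotypes, with medians of 0.38, -0.01 and 0.19. In the average 19.5% of all features were higher and 22.6% lower. Those lower in the average were Pdgfra, a growth factor receptor (-0.42), and the matrix proteins Dcn (-0.38) and Dpt (-0.43), chosen here after their values were seen. Pdpn, a marker of synovial fibroblasts, changed by 2.40 ± 0.27 in Mmp8+/+ and 1.86 ± 0.27 in Mmp8-/- mice, and Thy1 by 1.10 ± 0.16 in Mmp8+/+ and 0.58 ± 0.16 in Mmp8-/- mice. Of 6 tendon markers 3 rose in Mmp8+/+ and 2 in Mmp8-/- mice, with 1.47 ± 0.16 in Mmp8+/+ and 1.05 ± 0.16 in Mmp8-/- mice for Thbs4 and 0.85 ± 0.14 in Mmp8+/+ and 0.73 ± 0.14 in Mmp8-/- mice for Scx, the tendon transcription factor. Endothelial markers, of cells that rest on a type IV basement membrane, numbered 8, of which 1 rose and 1 fell in Mmp8+/+ mice and 1 fell in Mmp8-/- mice, Tek with -0.62 ± 0.18 in Mmp8+/+ and -0.94 ± 0.18 in Mmp8-/- mice among them.

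Of 8 macrophage markers 3 rose and 1 fell in Mmp8+/+ and 4 rose and 1 fell in Mmp8-/- mice, with 1.5 ± 0.18 in Mmp8+/+ and 1.5 ± 0.18 in Mmp8-/- mice for Cd14 and -1.16 ± 0.23 in Mmp8+/+ and -1.18 ± 0.23 in Mmp8-/- mice for Cd163. Of 8 neutrophil markers 2 fell in Mmp8+/+ mice and 0 passed in Mmp8-/- mice, and of 7 keratinocyte markers 0 passed in Mmp8+/+ mice and 2 fell in Mmp8-/- mice. The mean of the keratinocyte markers ranged from 8.01 to 9.66 in controls, 8.96 to 9.92 in arthritic Mmp8+/+ and 7.67 to 8.07 in arthritic Mmp8-/- mice, and 1 of these 7 markers was lower in Mmp8-/- than in Mmp8+/+ arthritic mice. All lists had signal in the control joints. The part of these cell types in the changes of the collagen chains was not tested.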

How the data were processed

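RNA of 12 ankle joints was measured on Mouse Gene 1.0 ST arrays. The authors normalized the arrays with RMA and analysed them in Partek, per the labels and the methods, and the deposited values are log2 signals of 28853 features, with versions not given in the sources used here. Groups came from the sample labels, 3 mice each. Of the features, 21789 were annotated with 1 gene symbol, 1621 with several and 5443 with none, and 0 columns were left out. Of the features with at least 1 gene symbol, the 18495 of highest mean log2 signal were tested. The authors kept the same number after their background filter. The lowest mean among the tested features was 5.29, and shares of all features are over these.

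The 4 group means were fitted over all 12 arrays with limma 3.58.1 (R 4.3.3) with 8 residual degrees of freedom and no covariate, and p-values were adjusted over all tested features by Benjamini-Hochberg in each of 6 comparisons. The threshold was an adjusted p of 0.05. Arrays have no read depth, so precision is limited by how many there are. Ratios of 14 partner pairs were tested with a two-sided exact permutation test within genotype and adjusted over the 14. The alternatives numbered 23.

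Given with all 12 values were the 2 chains of each class with the largest average arthritis change among those past the threshold in the average, and the chain with the smallest p in each genotype comparison and in the interaction. From each other list, up to 2 genes with the largest average change among those past the threshold in both genotypes were named. The members and lists were chosen with earlier results of these data known. Promoter windows are from RefSeq, GRCm38.p6, and protein sequences were not used here.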

Additional observations from a re-analysis of the deposited data

How the results depend on the processing

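The comparisons of genotypes and the interaction called 0 chains under each of the 23 alternatives. The 12 chains called with arthritis in Mmp8-/- mice (9 higher, 3 lower) fell to 4 at an FDR of 1% and to 7 with array weights. They fell to 7 when only the compared groups were fitted and to 4 without the 2 arrays with Xist signal. Of all tested features, 21.6% were called in the main fit and 8.19%, 15.8%, 14.5% and 9.33% in these settings, in the same order. Calls thus fell over all features too, and the counts of 4 are near the shares of all features. Higher calls no longer outnumbered lower ones at an FDR of 1% and without the arrays with Xist signal (2 and 2). Leaving out these 2 arrays and Mmp8-/- control replicate 2 leaves 1 Mmp8-/- control mouse, assumed to vary like the other groups. The median over the chains in Mmp8-/- mice was then 0.20. Without the same 3 arrays the median was 0.41 in Mmp8+/+ mice and 0.38 in the average, against 0.44 and 0.36 in the main fit. Fewer chains, and fewer of all features, were called in each arthritis comparison of that fit. Higher calls did not outnumber lower ones there in Mmp8-/- mice. The test on partner ratios then had 40 arrangements, which says little about stability. Leaving out each mouse in turn gave 14 to 21 calls in Mmp8+/+ mice, 6 to 11 in Mmp8-/- mice, 21 to 24 in the average, 6 to 8 partner ratios and 0 to 0 in the genotype comparisons. In Mmp8-/- mice the count was 6 without Mmp8-/- control replicate 1 and 7 without control replicate 2 or arthritic replicate 1. Of all features, 10%, 12.9% and 12.2% were called in these settings. The causes were not tested beyond the arrays left out. Averaging over several features of a gene was not run, since each chain has 1. No paired analysis was possible because the replicate numbers follow accession order and only name the mice.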
